A study of Mus musculus with 36 samples.

Results

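The genes described here encode the heat shock proteins, the DnaJ proteins and the subunits of the CCT chaperonin. They were taken by name, as every gene whose symbol begins with Hsp, with Dnaj or with Cct and a digit; Hspg2, which encodes a matrix proteoglycan, and the pseudogenes Hspd1-ps3 and Hspd1-ps4 were left out. The rule gave 77 of the 16060 genes in at least 1 of the 6 gene tables: 3 Hsp90 genes, 14 Hsp70 genes, the related Hsph1 among them, 6 small heat shock protein genes, 41 DnaJ genes, 8 CCT genes and 5 others (the mitochondrial chaperonins Hspd1 and Hspe1, and Hspbp1, Hspbap1 and Hspb11). All 77 had values in iWAT and 69 had them in liver, and 67 were in all 6 tables. The 8 found in iWAT tables only were Cct6b, Dnajb3, Dnajb13, Dnajc6, Hspa1a, Hspb2, Hspb3 and Hspb7.

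The study asked, at the level of RNA, whether fasting without a cut in calories gives the response that calorie restriction gives. C57BL/6J mice with no allele or transgene named in the labels were kept for 16 weeks on 1 of 3 diets: ad libitum feeding (AL, the control), calorie restriction (CR), or TR.al, written TR here, which the series title describes as time-restricted feeding without calorie restriction. RNA was sequenced from liver and from iWAT, the inguinal white fat depot, with 6 libraries per diet in each tissue, 6 groups and 36 libraries in all. Neither sex nor age is given in the labels. The values below come from the authors' comparisons of pairs of diets, which give 1 fold change per gene and no value per library, so the spread over libraries, their depth and any overlap of groups are not shown. CR and TR were both compared with the same AL libraries, so the CR and TR values of a tissue are set side by side only.

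Chaperones bind unfolded or partly folded proteins and let them fold without clumping. Hsp70 proteins hold short exposed stretches in a cycle driven by ATP, DnaJ proteins (also called Hsp40) bring them their clients and start the cycle, Hsp90 proteins finish the folding of kinases and receptors, small heat shock proteins hold unfolding proteins without ATP, and CCT is a closed ring that folds actin and tubulin. Each large compartment has its own set: Hspa5 (BiP) and Hsp90b1 (GRP94) in the endoplasmic reticulum (ER), where a liver cell folds the plasma proteins it secretes, and Hspa9, Hspd1 and Hspe1 in the mitochondrial matrix. The cytosolic set is induced by heat shock factor 1 through the heat shock element, and the ER set by the unfolded protein response through the ER stress element.

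Both elements were looked for in the RefSeq promoter windows of GRCm38.p6, which run from 250 bases before to 50 after a gene's start; 63 of the 77 members had a window. The ER stress element was searched as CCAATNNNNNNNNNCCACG on either strand, where N is any base. It lay in 39 of 32851 windows (0.119%) and in those of 3 members, Hspa5, Hsp90b1 and Dnajc3, all 3 of which encode proteins of the ER lumen and all 3 of which were called in a comparison below. The stretches around the matches are shown for that reason, 5′ to 3′ on the gene's strand, with the matches in capitals; Hsp90b1 has 2 matches, the second on the other strand. They lie at chr2:34772020-34772048, plus strand (Hspa5), chr10:86705510-86705694, minus strand (Hsp90b1) and chr14:118937767-118937905, plus strand (Dnajc3). The Hspa5 stretch is kept short because GENCODE M21 places an exon over it.
Hspa5: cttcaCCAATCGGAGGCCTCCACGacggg
Hsp90b1: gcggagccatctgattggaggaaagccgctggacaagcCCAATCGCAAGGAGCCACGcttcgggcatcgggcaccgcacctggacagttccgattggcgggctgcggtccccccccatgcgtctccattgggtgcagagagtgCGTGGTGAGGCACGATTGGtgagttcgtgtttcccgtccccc
Dnajc3: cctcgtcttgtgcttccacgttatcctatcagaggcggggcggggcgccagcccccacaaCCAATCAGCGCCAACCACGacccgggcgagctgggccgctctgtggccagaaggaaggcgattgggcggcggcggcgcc

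The heat shock element was searched as GAANNTTCNNGAA on either strand, where N is any base. It lay in 198 of 32851 windows (0.603%) and in those of 4 members, Hspd1, Hspe1, Dnajb6 and Hsph1. Hspd1 and Hspe1 encode the chaperonin Hsp60 and its lid Hsp10 and stand head to head on chromosome 1 (GENCODE M21: Hspd1 55077835 to 55088243 on the minus strand, Hspe1 55088132 to 55091307 on the plus strand), so both windows hold the same pair of overlapping matches, shown here on the strand of Hspe1 at chr1:55088053-55088082, plus strand. The Dnajb6 stretch lies at chr5:29735844-29735872, plus strand, and holds 1 match, which is in the windows of both RefSeq starts of the gene. Both stretches overlap annotated exons. They are shown because Hspe1 and Dnajb6 were called below and Hspd1, which shares the matches, was not. The Hsph1 match lies after its start and is not printed. Of the heat-inducible members called on TR below, Hspe1 had a match, and none was found for Hspa1b, Hspa4l, Hspb1, Hspa8 or Dnajb1. The search misses other forms of the element, bases outside the window and members without a window, so no match does not show that a gene lacks it. A match is a description of these letters and does not show that a factor binds there.
Hspe1: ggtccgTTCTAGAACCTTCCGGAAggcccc
Dnajb6: agctccgaGAATCTTCCGGAAcgctagac

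A gene is called below where the adjusted p of the authors' edgeR generalized linear model test is under 0.05; p values were adjusted by the authors over all genes of a table. Changes are log2 fold changes with an approximate SE in parentheses, taken from the fold change and the likelihood-ratio statistic of the same row. The median approximate SE over all genes was 0.14 to 0.15 in the liver tables and 0.32 to 0.37 in the iWAT tables, so a change had in general to be larger in iWAT to be called. The tissue labels were checked against marker genes. Hepatocyte markers had a median log2 mean CPM of 12.4 in the authors' deposited table of liver CR and AL, and adipocyte markers one of 10.8 in that of iWAT CR and AL. Markers of other cell types were also measured in iWAT and differed between diets. In the authors' deposited tables, all 16 skeletal muscle markers lay above 0 in CR minus AL (median 1.22, none called) and below 0 in TR minus AL (median -2.89, 7 called), and the 8 hepatocyte markers lay below 0 in CR minus AL (median -3.99, 7 called) and above 0 in TR minus AL (median 2.22, none called). All 6 brown or beige adipocyte markers were called higher on both diets, with medians of 2.81 and 2.40. The 6 macrophage markers were all below 0 on both diets, with medians of -0.75 on CR, where Mrc1 was called, and -0.85 on TR, where Itgam and Mrc1 were called. The 6 B and T cell markers were all above 0 on both diets, with medians of 1.10 and 0.90 and no call. In liver, 7 of 8 hepatocyte markers were above 0 on each diet (medians 0.29 and 0.21). Ttr was called higher on both diets and Alb on TR. Of the 5 adipocyte markers measured in liver, Cfd, Cidec and Pparg were called lower on both diets. On each diet 2 of the 5 were above 0, and Lipe was called higher on TR. Liver macrophage markers were below 0 in 6 of 6 on CR, with no call, and are given for TR beside the ER results. The tables give means over both groups and no marker level per group. In these bulk samples, fewer cells of a type and less RNA per cell cannot be told apart.

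Of the 77 members, 21 were called in at least 1 of the 6 comparisons and 56 in none. The share of all genes called in at least 1 of the 6 was not counted, so this pooled number has no reference. The shares per comparison follow. In liver, CR called 3 of 68 members against AL, 2 higher and 1 lower, where 11.2% of all genes of the authors' deposited table were called (5.79% higher and 5.37% lower). TR called 12 of 68 in liver, 6 higher and 6 lower, beside 18.9% of all genes (9.35% higher and 9.54% lower). In iWAT, CR called 6 of 77 members, 3 higher and 3 lower, beside 7.30% of all genes (3.52% higher and 3.78% lower), and TR called 6 of 75, 4 higher and 2 lower, beside 10.0% (4.76% and 5.24%). The members' shares were 4.41%, 17.6%, 7.79% and 8.0% in the same order, each near or below the share of all genes, which is no result about the members. Their median change was -0.01 and 0.00 on CR and TR in liver, beside 0.00 for all genes on both diets, and 0.14 and 0.16 in iWAT, beside 0.02 and -0.04. The direct comparison of CR with TR called 1 of 68 members in liver, beside 0.469% of all genes, and 0 of 74 in iWAT, beside 0.918%. In the authors' deposited tables of these comparisons, 8 and 4 members had an unadjusted p under 0.05. Of all genes, 1263 of 12593 in liver and 532 of 14699 in iWAT did.

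**Figure D1:**
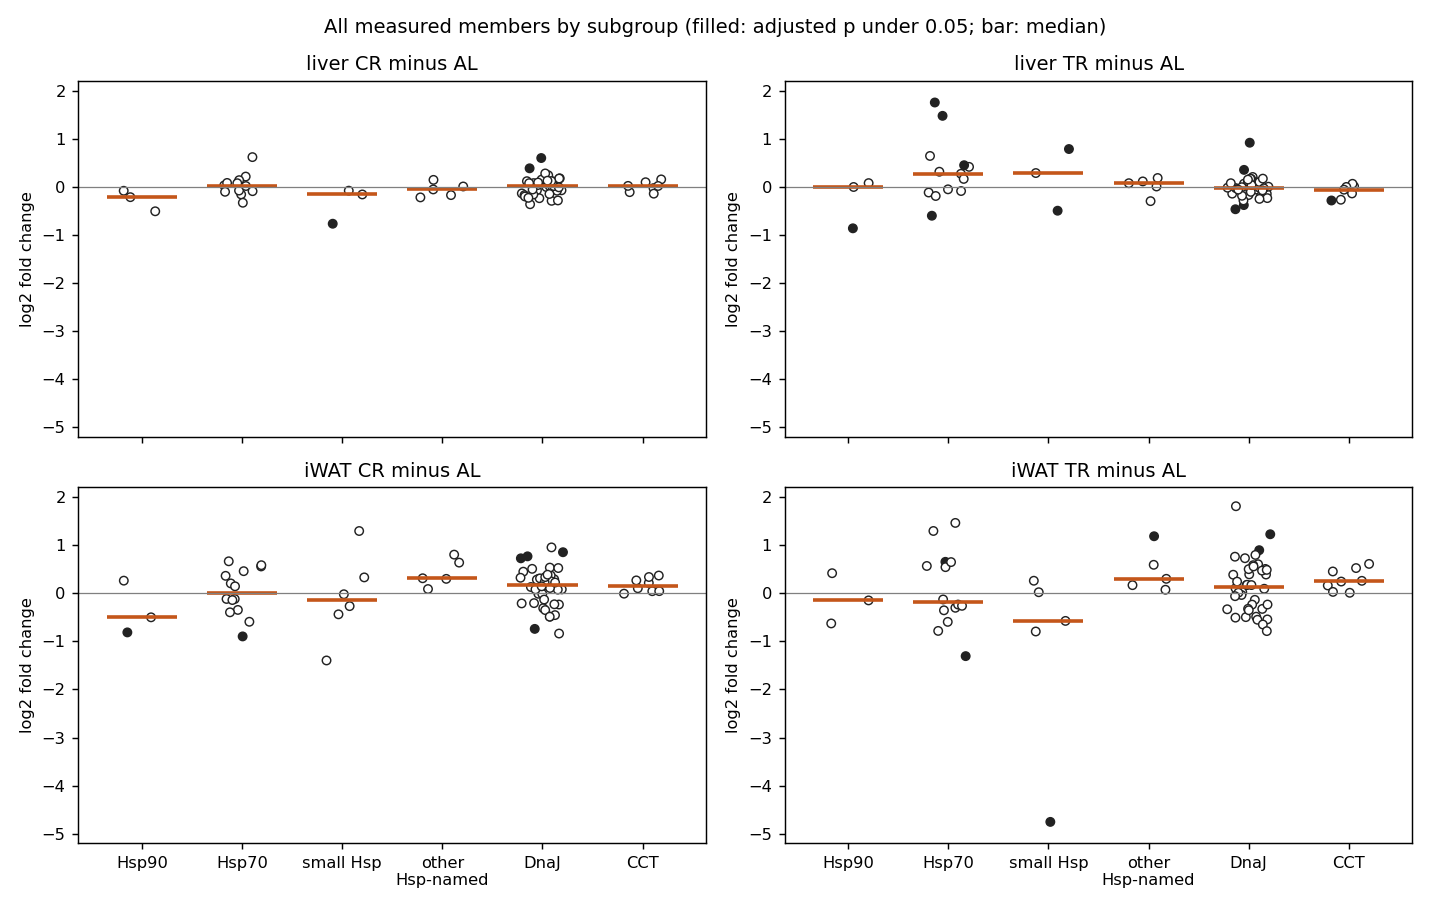
Log2 fold change (y axis) of every measured member against AL, by subgroup (x axis), for CR and TR in liver and iWAT. Filled points are called at an adjusted p under 0.05, and the bar is the subgroup's median. Most points lie near 0; the lowest is Hspb7 at -4.75 in iWAT on TR.

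On either diet, 12 members were called against AL in liver and 10 in iWAT, and Hsp90b1 alone was called in both. Among members with values in both tissues, that gene is 8.33% of the 12 called in liver and 11.1% of the 9 called in iWAT; over all genes with values in both, 404 were called in both tissues, 15.9% of the liver calls and 28.8% of the iWAT calls. In liver, Dnaja4, Dnajb6 and Hspb6 were called on both diets; in iWAT, Dnajc15 and Hspa12a were. A call in 1 tissue does not show that the tissues differ, and the tests of the difference are given further on.

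**Figure D2:**
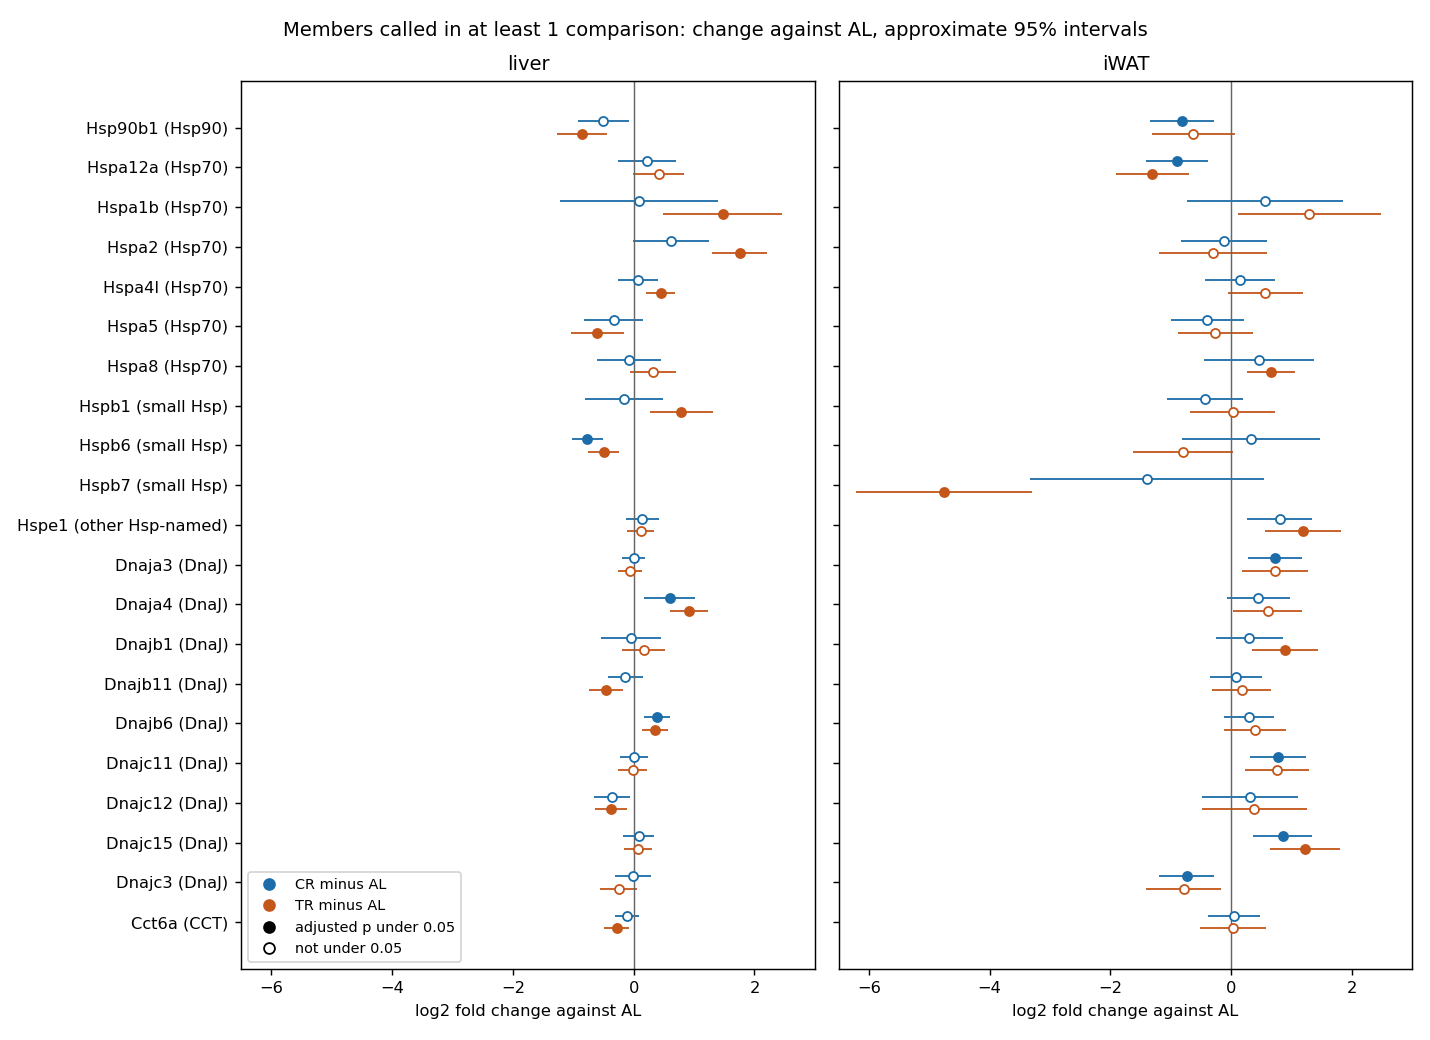
Log2 fold change against AL (x axis) with approximate 95% intervals for the 21 members called in at least 1 comparison (y axis), in liver and iWAT, for CR (blue) and TR (orange). Filled points are called; Hspb7 has no liver value. The 2 panels show few genes filled in both.

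In the ER lumen, 3 of 7 chaperones fell in liver on TR, where 9.54% of all genes in the authors' deposited table were called lower. Hsp90b1, the ER member of the Hsp90 family, fell by 0.86 on the log2 scale (SE 0.21, adjusted p = 0.000756) in the authors' deposited table, to 0.551 of its AL level. Hspa5, the ER Hsp70, which also holds the sensors of ER stress inactive, fell by 0.60 (SE 0.23, adjusted p = 0.044) in the same authors' deposited table. Dnajb11, a DnaJ partner of Hspa5, fell by 0.46 (SE 0.14, adjusted p = 0.0109) there. The other 4 of the 7 members listed as ER lumen proteins were below 0 without passing the test: Dnajc3, the co-chaperone P58IPK, at -0.25, Hspa13 at -0.09, Dnajc10, which carries a disulfide reductase, at -0.03 and Dnajb9 (ERdj4) at -0.02 in the authors' deposited table. The list's median was -0.25, beside 0.00 for all genes. Markers of immune cells were also below 0 in that table: 6 of 6 for macrophages (median -0.51, Lyz2 called at -0.61, 3 unadjusted p values under 0.05) and 4 of the 4 measured for B and T cells (median -0.48, none called). Their part in the ER result was not tested.

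On CR the same 7 genes had a median of -0.01 in liver and none was called: Hsp90b1 was at -0.51 (SE 0.22, adjusted p = 0.115), Hspa5 at -0.33 (SE 0.25) and Dnajb11 at -0.14 (SE 0.15) in the authors' deposited table. Set directly against TR, all 7 were higher on CR, by 0.14 to 0.36, and none passed the test; Dnajb11, at 0.33, had the only unadjusted p under 0.05 in the authors' deposited table, 0.0436. So the fall on TR was not shown to differ from the response to CR. In iWAT, Hsp90b1 fell on CR by 0.81 (SE 0.27, adjusted p = 0.0417) and Dnajc3 by 0.74 (SE 0.23, adjusted p = 0.0242) in the authors' deposited table. On TR, Hsp90b1 was at -0.63 (adjusted p = 0.272) and Dnajc3 at -0.79 (adjusted p = 0.0938) in that table as deposited by the authors. The list then had no call, 3 unadjusted p values under 0.05 and a median of -0.54. Hspa5 was not called in iWAT on either diet, at -0.40 on CR and -0.26 on TR in the authors' deposited tables.

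Other genes of ER folding and the unfolded protein response were measured for 30 of a list of 32 names. In liver on TR, 9 of the 30 were called lower and 1 higher in the authors' deposited table, with a median of -0.18, beside 9.54% of all genes called lower and 9.35% called higher. Among those with the smallest adjusted p, Derl3, a channel subunit of ER-associated degradation, fell by 2.60 (SE 0.54), Pdia4, a disulfide isomerase, by 0.92 (SE 0.20), the lectin chaperone Calr by 0.73 (SE 0.16) and Sel1l, the adaptor of the degradation ligase, by 0.57 (SE 0.16) in the authors' deposited table. The one called higher was Sec61b, a subunit of the translocation channel, at 0.52 (SE 0.15). On CR in liver, Derl3 fell by 2.01 (SE 0.55), and Sec61b, Serp1 and Ostc were called higher, at 0.64, 0.57 and 0.43 in the authors' deposited table. Of all genes, 5.79% were called higher there and 5.37% lower. The shares of all genes called in iWAT were 7.30% on CR and 10.0% on TR. In iWAT this list had 1 call on CR, Sec63, which fell by 0.70 (SE 0.24), and 0 on TR, where 4 genes had an unadjusted p under 0.05 in the authors' deposited table. The ER stress element lay in the windows of 7 of the 24 list genes with one (Calr, Canx, Creld2, Derl3, Ero1b, Pdia6 and Syvn1).

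A list of 12 members was taken as heat-inducible. It also holds the mitochondrial Hspd1 and Hspe1 and the constitutive Hspa8. On TR, 3 of the list were called higher in each tissue, and they were different genes in liver and iWAT. Of the 12 listed, 11 were measured in liver, where TR called 3 higher and none lower in the authors' deposited table, beside 9.35% of all genes called higher. Hspa1b, a stress-inducible Hsp70, rose by 1.48 (SE 0.50, adjusted p = 0.0226), which is 2.78-fold, in the authors' deposited table. Its log2 mean CPM was 4.37 there and 3.47 in the table of liver CR and AL, where all genes had a median of 3.79. Its near-identical copy Hspa1a lies 9951 bases away on chromosome 17, and because reads of the pair can be split between them, the value of either is uncertain; Hspa1a was not tested in liver. Hspb1 (Hsp25), a small heat shock protein that guards the actin cytoskeleton, rose by 0.79 (SE 0.26, adjusted p = 0.0212), also in the authors' deposited table. Hspa4l, an exchange factor of Hsp70, rose by 0.45 (SE 0.12, adjusted p = 0.00302) there, again in the authors' deposited table. The list's median was 0.17 on TR and -0.06 on CR, where none was called and no gene had an unadjusted p under 0.05.

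The abundant members of the list did not pass the test in liver. On TR, the constitutive Hsp70 Hspa8 was at 0.32 (SE 0.19, adjusted p = 0.265), Hsp90aa1 at 0.08, Hsp90ab1 at 0.00, Hsph1 at 0.17, Dnajb1 at 0.17 and Dnaja1 at 0.21 in the authors' deposited table. In the direct comparison in liver, 9 of 11 list members were lower on CR than on TR, with a median of -0.25, but none was called; Hspb1 came nearest, at -0.95 (SE 0.28, adjusted p = 0.105), and Hspa1b was at -1.39 (SE 0.65, adjusted p = 0.43) in the authors' deposited table.

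In iWAT, TR called 3 of the 12 heat-inducible members higher and none lower, with a median of 0.61 beside -0.04 for all genes, of which 4.76% were called higher. Hspa8 rose by 0.65 (SE 0.20, adjusted p = 0.0181) in the authors' deposited table. Dnajb1, the DnaJ protein that works with inducible Hsp70, rose by 0.89 (SE 0.28, adjusted p = 0.0201) in the authors' deposited table. Hspe1 rose by 1.18 and is described with the mitochondrial members. Hspa1a and Hspa1b were at 1.46 (SE 0.63, adjusted p = 0.128) and 1.29 (SE 0.61, adjusted p = 0.171) and were not called in the authors' deposited table of iWAT TR. On CR none of the 12 was called, with a median of 0.28, and all 12 were below 0 in CR minus TR, with a median of -0.43 and no call; Dnajb1 had the only unadjusted p under 0.05 in the authors' deposited table, 0.0276. The heat shock factor list (Hsf1, Hsf2, Hsf4 and Hsbp1) had 0 of 4 called in any of the 6 comparisons, with 3 unadjusted p values under 0.05 in all 6 authors' deposited tables together. Among 21 cytosolic co-chaperones, 1 was called in liver on each diet (Ppid on CR, at 0.32, and Bag5 on TR, at 0.33). That stood beside 11.2% and 18.9% of all genes. In iWAT, 0 of 21 were called on CR and 2 on TR, beside 7.30% and 10.0% of all genes. The 2 were the Hsp70 exchange factor Bag1, at 1.00 (SE 0.31), and the Hsp90 partner Fkbp4, at 0.94 (SE 0.31), in the authors' deposited tables. These counts are near or below the shares of all genes and are no result about the list.

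**Figure D3:**
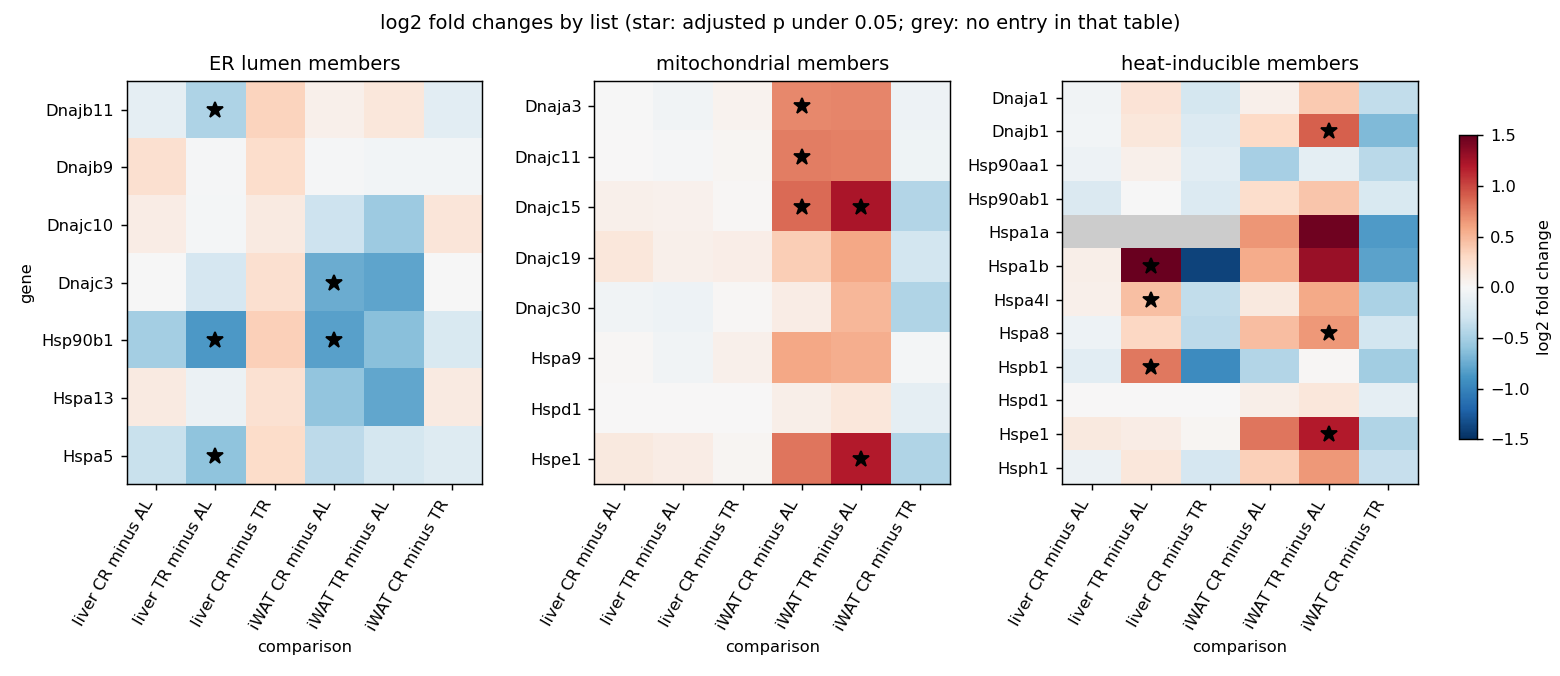
Log2 fold changes (colour, full at 1.5 in either direction) of the ER lumen, mitochondrial and heat-inducible members (y axis) in the 6 comparisons (x axis). Stars mark calls and grey marks a gene without an entry in that table. In liver TR minus AL all 7 ER genes are below 0 and 3 were called, but Hspa13, Dnajb9 and Dnajc10 lie close to 0. The mitochondrial genes are above 0 in both iWAT comparisons with AL, Hspd1 only slightly.

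Among the other Hsp70 genes, Hspa2 and Hspa12a gave the largest changes. Hspa2 (chromosome 12, 76404176 to 76406938, plus strand, GENCODE M21), best known for its role in sperm formation, rose by 1.75 in liver on TR (SE 0.23, adjusted p = 2.57e-12), which is 3.37-fold, in the authors' deposited table. Its level there was low, with a log2 mean CPM of 1.50 in that authors' deposited table. On CR it was at 0.62 (SE 0.32, adjusted p = 0.231), and it was lower on CR than on TR by 1.13 (SE 0.28, adjusted p = 0.0207) in the authors' deposited tables, the only member called between the diets. In iWAT Hspa2 was at -0.12 on CR and -0.30 on TR in the authors' deposited tables, neither called. Hspa12a, a distant Hsp70 relative, fell in iWAT by 0.90 on CR (SE 0.26, adjusted p = 0.0148) and by 1.31 on TR (SE 0.31, adjusted p = 0.00095) in the authors' deposited tables. In liver, where Hspa12a was among the lowest members, it was at 0.21 and 0.42 and was not called in the authors' deposited tables.

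Among the small heat shock proteins, Hspb6 (Hsp20), known in muscle, fell in liver by 0.77 on CR (SE 0.13, adjusted p = 6.93e-07) and by 0.50 on TR (SE 0.13, adjusted p = 0.00214) in the authors' deposited tables. It was the only member called lower in liver on CR. Its annotated span overlaps Lin37 and Proser3 on the other strand, and without a stated strand setting reads of such neighbours cannot be told apart. The same holds for the other called members that overlap a gene on the other strand, 9 of the 21 with Hspb6: Cct6a (with Psph), Dnaja3 (Coro7), Dnaja4 (Wdr61), Hspa12a (Eno4), Hspe1 (Hspd1), and Dnajb6, Dnajb11 and Hsp90b1, whose neighbours have no established gene name. In addition, 7 of the 21 (Cct6a, Dnaja3, Dnaja4, Hsp90b1, Hspa12a, Hspa8 and Hspb6) overlap a gene on their own strand. Hspb8, the most abundant small heat shock protein per length in both tissues, was at -0.08 on CR and 0.29 on TR in liver (adjusted p = 0.803 and 0.0935) in the authors' deposited tables. In liver, all 3 measured small members were lower on CR than on TR, each with an unadjusted p under 0.05 and none called. Of all genes in that comparison, 1263 of 12593 had an unadjusted p under 0.05.

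In iWAT, Hspb7 (chromosome 4, 141420779 to 141425311, plus strand, GENCODE M21), a heart and skeletal muscle protein, fell on TR by 4.75 (SE 0.74, adjusted p = 3.15e-08), to 0.0371 of its AL level, in the authors' deposited table. On CR it was at -1.40 (SE 0.99, adjusted p = 0.457) in the authors' deposited table, and it was not tested between the diets. The skeletal muscle markers named above moved with it on TR: 16 of 16 were below 0 and 7 were called, among them Myh1, a fast myosin, at -6.06 (SE 1.23) and Acta1, skeletal actin, at -2.84 (SE 0.92) in the authors' deposited table. On CR, where Hspb7 was also below 0, all 16 markers were above 0 and none was called. Their part in the Hspb7 result was not tested. Hspb6 was at 0.33 on CR, -0.80 on TR and 1.11 between the diets in iWAT, with no call, and Hspb1 at -0.44 and 0.02 in the authors' deposited tables. Hspb2, whose annotated span overlaps Cryab, and Hspb3 were not called in iWAT.

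Several mitochondrial members rose in iWAT, and none of the 8 was called in liver. By the test of the difference given further on, the tissues differed among these only for Dnaja3 on CR and for Dnajc15 and Hspe1 on TR. On CR, 3 of 8 were called higher in iWAT and all 8 were above 0, with a median of 0.65 beside 0.02 for all genes, of which 3.52% were called higher. Dnajc15, a DnaJ protein of the inner membrane that works at the import motor, rose by 0.85 (SE 0.25, adjusted p = 0.0145) in the authors' deposited table. Dnajc11, a partner of the complex that shapes the cristae, rose by 0.77 (SE 0.24, adjusted p = 0.0227) there, and Dnaja3 (Tid1), the matrix DnaJ partner of Hspa9, by 0.73 (SE 0.23, adjusted p = 0.0247) in the authors' deposited table. On TR, Dnajc15 rose by 1.23 (SE 0.30, adjusted p = 0.00125) and Hspe1 by 1.18 (SE 0.32, adjusted p = 0.00536), the latter to 2.27-fold, in the authors' deposited table, with a median of 0.66 over the 8, where 4.76% of all genes were called higher.

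Some values lay close to the threshold. On TR, Dnajc11 was at 0.76 (adjusted p = 0.0526) and Dnaja3 at 0.73 (adjusted p = 0.0756), and on CR Hspe1 was at 0.80 (adjusted p = 0.0501) in the authors' deposited tables. Hspa9 (mortalin), the matrix Hsp70, was at 0.58 (SE 0.30) on CR and 0.54 (SE 0.28) on TR and was not called in the authors' deposited tables. Hspd1 was at 0.09 (SE 0.28) and 0.17 (SE 0.33) in the authors' deposited tables of iWAT and was not called, and its annotated gene body and that of Hspe1 overlap by 112 bases at the shared promoter. The difference between the 2 genes was not tested. No mitochondrial member differed between CR and TR in iWAT by a call, though all 8 were below 0 in CR minus TR (median -0.20, no unadjusted p under 0.05).

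In liver, 0 of 8 mitochondrial members were called on CR, on TR or between them, beside 11.2%, 18.9% and 0.469% of all genes. Among so few genes, 0 calls beside those shares is no result about them. None of the 8 had an unadjusted p under 0.05 in the authors' deposited tables. The approximate 95% intervals against AL ran from -0.34 to 0.42 on CR and from -0.33 to 0.34 on TR over the 8. The 11 other genes of mitochondrial protein quality control also gave 0 calls in liver, beside the same shares. On each diet, 1 of these 11 had an unadjusted p under 0.05 in the authors' deposited tables. In iWAT they gave 3 calls on CR, all higher: the protease Lonp1 at 0.82 (SE 0.22), the inner membrane protease Afg3l2 at 0.73 (SE 0.22) and the matrix Hsp90 Trap1 at 0.73 (SE 0.23) in the authors' deposited table. On TR, Grpel1, the exchange factor of Hspa9, rose by 0.96 (SE 0.31) in the authors' deposited table. Of all genes in iWAT, 3.52% were called higher on CR and 4.76% on TR. The brown or beige adipocyte markers rose on the same diets, with Ucp1, the uncoupling protein, at 4.13 (SE 0.86) on CR and 2.88 (SE 0.83) on TR and Cidea at 4.08 and 4.05 in the authors' deposited tables, and their part in the rise of the mitochondrial members was not tested.

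The 41 DnaJ genes among the 77 members held 9 of the 21 called members, spread over their 3 classes, a pooled count without a reference over all genes. Against AL, 2 of 38 DnaJ genes were called in liver on CR and 4 of 37 on TR. In iWAT, 4 of 41 were called on CR and 2 of 40 on TR. Of all genes, 11.2%, 18.9%, 7.30% and 10.0% were called in that order. These counts are near or below the shares of all genes and are no result about the family. Dnaja4, a cytosolic class A member, rose in liver by 0.60 on CR (SE 0.22, adjusted p = 0.0481) and by 0.92 on TR (SE 0.16, adjusted p = 5.29e-07) in the authors' deposited tables. In iWAT it was at 0.45 and 0.60 in the authors' deposited tables and was not called. Dnajb6, which keeps aggregation-prone proteins soluble, rose in liver by 0.39 on CR (SE 0.11, adjusted p = 0.00817) and by 0.35 on TR (SE 0.11, adjusted p = 0.0138) in the authors' deposited tables. Dnajc12, a partner of the aromatic amino acid hydroxylases, fell in liver on TR by 0.38 (SE 0.14, adjusted p = 0.036), and was at -0.36 on CR (SE 0.15, adjusted p = 0.113) in the authors' deposited tables. Dnaja3, Dnajb1, Dnajb11, Dnajc3, Dnajc11 and Dnajc15, the remaining called genes of the family, are described above with their compartments. Dnajb9 and Dnaja1 were not called anywhere.

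Dnajc22, singled out after its values were seen, had a level of 44.9 mean CPM per kb in liver and 0.405 in iWAT in the CR and AL tables, and of 45.3 and 1.08 in the TR and AL tables. In iWAT it was at -0.84 on CR, 1.81 on TR and -2.65 between the diets (adjusted p = 0.572) in the authors' deposited tables, in the same directions as the hepatocyte markers of iWAT, which were below 0 in 8 of 8, above 0 in 8 of 8 and below 0 in 8 of 8. The part of hepatocyte RNA in its values was not tested.

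The CCT subunits spanned the narrowest range of the 6 subgroups in each comparison with AL. Of 8, 1 was called in any comparison: Cct6a, which fell in liver on TR by 0.28 (SE 0.10, adjusted p = 0.0387) in the authors' deposited table. All genes were called at 11.2% and 18.9% in liver on CR and TR, and at 7.30% and 10.0% in iWAT. With 8 subunits, 1 call beside these shares is no result about CCT. Cct3 was close, at -0.27 (SE 0.10, adjusted p = 0.0529), and Cct2 was at -0.14, Cct4 at 0.01, Cct5 at 0.06, Cct7 at 0.00 and Cct8 at -0.06 in the authors' deposited table of liver TR. On CR in liver the 7 measured subunits lay between -0.14 and 0.16, with no call and no unadjusted p under 0.05, and their approximate 95% intervals ran from -0.36 to 0.37 in the authors' deposited table. In iWAT the subunits lay between -0.01 and 0.37 on CR and between 0.01 and 0.61 on TR, with medians of 0.16 and 0.25 and no call; Cct7 on TR, at 0.61 (SE 0.30, adjusted p = 0.189), had the only unadjusted p under 0.05 in the authors' deposited tables. Tcp1, the remaining subunit of the ring, was at -0.16 in liver and 0.13 in iWAT on TR, and none of the 10 genes of prefoldin, its helpers and Tcp1 was called in any comparison, with 1 unadjusted p under 0.05 in all 6 authors' deposited tables together.

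The tissues were compared with an approximate 2-sided normal test of iWAT minus liver, adjusted by the Benjamini-Hochberg method over all genes in both tables. For the CR effect, 2 of 68 members differed, beside 6.73% of all 12012 genes. The CR effect on Dnaja3 was higher in iWAT by 0.73 (approximate SE 0.25, adjusted p = 0.0464). The effect on Hspa12a was lower there, with a difference of -1.11 (approximate SE 0.36, adjusted p = 0.0361). For the TR effect, 4 of 68 members differed, beside 7.81% of all 12201 genes. Dnajc15 and Hspe1 were more raised in iWAT, by 1.16 (SE 0.32, adjusted p = 0.00808) and 1.07 (SE 0.34, adjusted p = 0.0275). The TR effects on Hspa12a and Hspa2, though not their levels, were higher in liver. The differences were -1.72 (SE 0.38, adjusted p = 0.000362) and -2.06 (SE 0.51, adjusted p = 0.00246). The shares of members were below those of all genes on both diets. The median difference over the members was 0.11 on CR and 0.17 on TR, beside 0.03 and -0.01 for all genes.

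The ER lumen fall in liver on TR was not shown to be particular to liver: the differences for Hsp90b1 and Hspa5 did not reach an unadjusted p under 0.05, and Dnajb11 differed by 0.63 (SE 0.29, adjusted p = 0.182). Nor were the heat-inducible genes apart from Hspe1 shown to differ; Dnajb1 differed by 0.73 (SE 0.33, adjusted p = 0.183). Hspb7 could not be compared, having no liver value. Libraries of both tissues can come from the same mouse, which this test takes as uncorrelated. With an assumed correlation of -0.3, the differences of Dnaja3 and Hspa12a on CR and of Hspe1 on TR lost their calls.

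**Figure D4:**
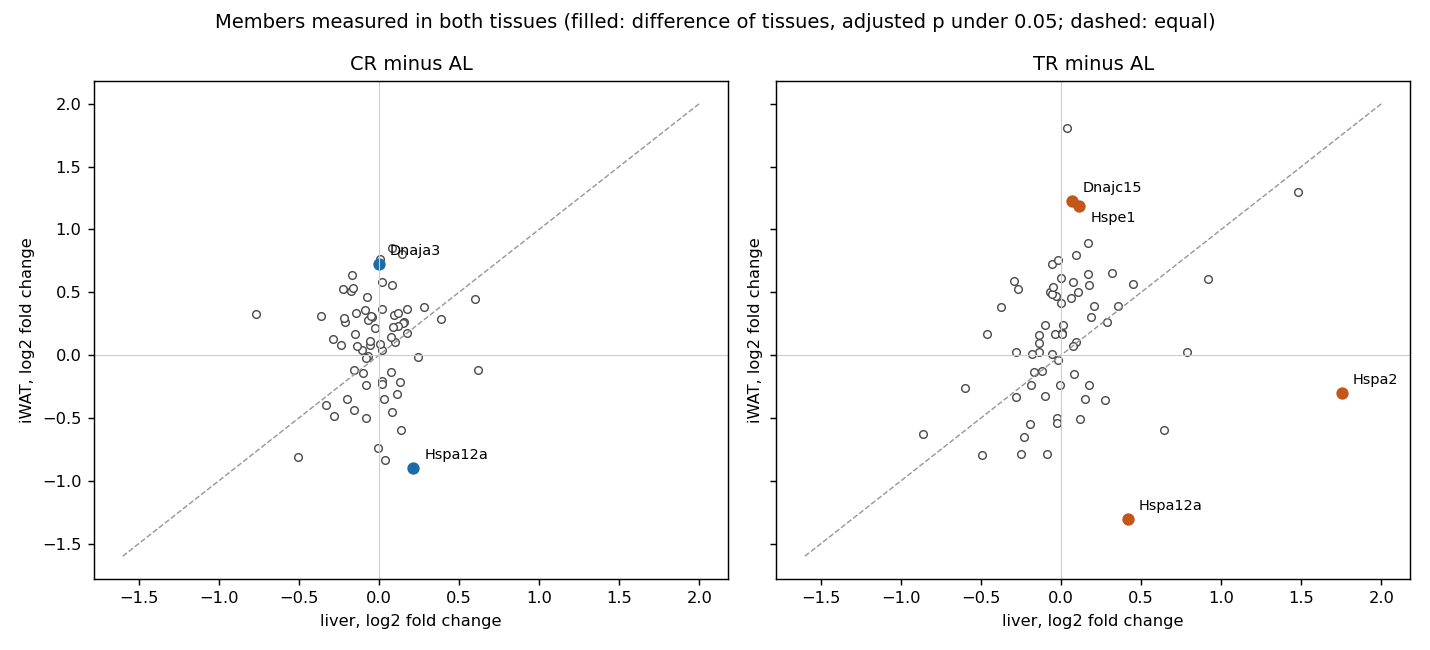
Log2 fold change in iWAT (y axis) against that in liver (x axis) for the 68 members measured in both tissues, on CR and TR. Filled and named points have an adjusted p under 0.05 for the difference of the tissues, and the dashed line marks equal changes. The named points are 2 on CR and 4 on TR.

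At the level of single transcripts, the calls were fewer. In liver, 1 of 177 member transcripts was called on CR (2.66% of all transcripts) and 5 of 179 on TR (3.94%), and 0 of 175 between the diets (0.323%; 12 with an unadjusted p under 0.05). In iWAT, 1 of 191 was called on CR (2.45%), 4 of 189 on TR (3.55%) and 0 of 177 between the diets (0.413%; 2 with an unadjusted p under 0.05) in the authors' deposited tables. Each called transcript except Hspa5-206 and Hspa8-202 was the most abundant one of its gene. Hsp90b1-201 fell by 0.87 in liver on TR (SE 0.19, adjusted p = 0.000603) and Hspe1-201 rose by 1.20 in iWAT on TR (SE 0.33, adjusted p = 0.0149) in the authors' deposited tables. For Hspa5 the call in liver on TR fell on the minor transcript Hspa5-206, at -1.00 (adjusted p = 0.0286, log2 mean CPM 2.80), while the main one, Hspa5-202, was at -0.60 (adjusted p = 0.0811, log2 mean CPM 10.6) in the authors' deposited table.

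Hspa8 also had a called transcript far from the value of its gene. In iWAT, Hspa8-202 was at -15.14 on CR (adjusted p = 0.000303, log2 mean CPM 6.37) and 0.46 on TR (SE 2.55, log2 mean CPM 7.50) in the authors' deposited tables, and it was not tested between the diets. A fitted fold of that size depends on the prior count of the fit and is no bound. The main transcript, Hspa8-201, was at 0.56 (SE 0.43) on CR and 0.69 (SE 0.26, adjusted p = 0.127) on TR, with a log2 mean CPM of 11.2 and 11.3, in the authors' deposited tables.

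Levels were compared per length, as the mean CPM of the CR and AL libraries over the kilobases of exon in GENCODE M21. The order at the top was alike in both tissues: Hspa8 came first, at 733 CPM per kb in liver and 619 in iWAT, and Hsp90ab1 next, at 679.9 and 452. These 2 cytosolic genes made up 18.8% and 17.5% of the members' summed level in liver and 23.1% and 16.9% in iWAT. The ER pair stood higher in liver, with Hspa5 at 409.8 and 122 CPM per kb and Hsp90b1 at 409.6 and 82.4. Hspd1 was at 266 and 112, and Hspe1 at 117 and 77.7. The CCT subunits ranged in liver from 18.8 to 60.2 CPM per kb, and the DnaJ genes had a median of 5.70 in liver and 6.15 in iWAT. The length used is the union of all annotated exons of a gene, which differs widely. Cct7 and Cct2 had 6778 and 2557 bases of it, so they lay at 18.8 and 51.2 CPM per kb in liver. Their log2 mean CPM there was 6.99 and 7.03. The liver and iWAT tables were normalized separately and give no spread over libraries, so these levels carry no error and no test; the neighbours Hspa5 and Hsp90b1 in liver cannot be ranked.

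**Figure D5:**
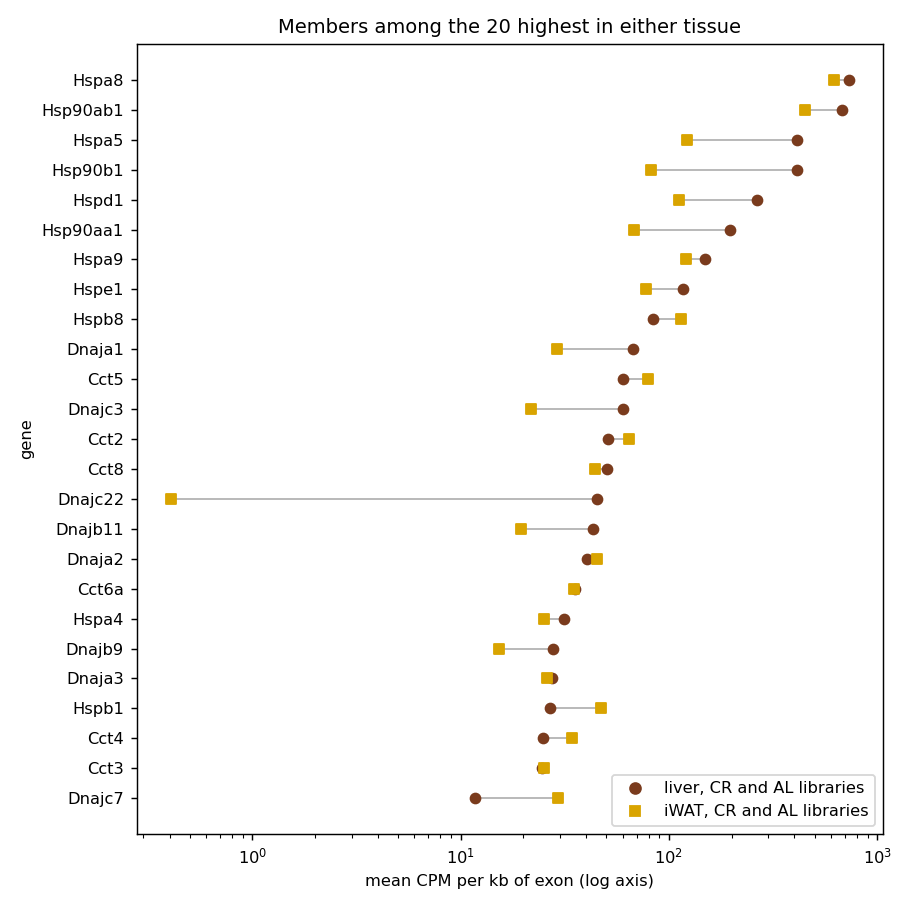
Mean CPM per kb of exon (x axis, log scale) of the 25 members among the 20 highest in liver or iWAT (y axis), from the CR and AL libraries, with circles for liver and squares for iWAT. Hspa8 and Hsp90ab1 lead in both tissues, and Hspa5 and Hsp90b1 are higher in liver.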

How the data were processed

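RNA of 36 libraries (6 for each diet and tissue, TruSeq kit, total RNA, per the labels' protocols) was processed by the submitters with bcl2fastq 2.20, STAR 2.5.3a and RSEM on GRCm38.p5, per the submitters' processing notes; the RSEM version and strand setting are not stated in the labels. The deposited files are 12 tables of comparisons, 6 of genes and 6 of transcripts, which the authors name as edgeR generalized linear model fits. Per the file headers, the authors give a log2 fold change, a log2 mean CPM, a likelihood-ratio statistic (a score), a p-value and a false discovery rate (an adjusted p-value) per row. Totals per library, and so depth, are unknown here. The labels do not state the covariates or filters of each fit. With no values per library, the quantities computed here are an approximate SE (the absolute log2 fold change over the root of the likelihood ratio), 95% intervals, the difference between tissues, counts and medians over lists, CPM per kb and promoter matches (Python 3.11.15, scipy 1.17.1). In the deposited gene tables, p matched the chi-square tail of the likelihood ratio to within 5.00e-06, and recomputed Benjamini-Hochberg values differed from the authors' by at most 0.00234. All 77 member identifiers matched GENCODE M21.

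The members and the gene lists were chosen with earlier results of these data known. Genes were named by a rule: for each comparison and subgroup up to 5 called members with the smallest adjusted p, up to 4 a subgroup for each tissue difference, up to 4 for each list of other genes, a set list of well-known members, and others where a small count needed them; Dnajc22 was added after its values were seen. Animal numbers in the labels give 20 mice, 16 of them with both tissues; number 24 occurs in both CR and TR. Alternatives were other thresholds, adjustments, a minimum log2 mean CPM of 1, centring, the transcript tables and, for tissue differences, correlations of 0.3 and -0.3. The authors' p-values test the difference between groups of these libraries, and the spread between libraries is not given. Protein sequences were not used here.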

Additional observations from a re-analysis of the deposited data

Results flagged for a closer look

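The effect of a diet differed between iWAT and liver, by the approximate test of the difference, for 6 pairs of member and diet. On CR the iWAT minus liver difference was 0.728 for Dnaja3 and -1.11 for Hspa12a. On TR it was 1.16 for Dnajc15, 1.07 for Hspe1, -1.72 for Hspa12a and -2.06 for Hspa2. Hspa12a was the only member called on both diets. By the same test, Dnaja3 differed by 0.783 on TR (adjusted p = 0.0853) and Dnajc15 by 0.772 on CR (adjusted p = 0.0745), close to the threshold. So these differences were not shown to be particular to 1 diet. With an assumed correlation of -0.3 between the tissues, 3 of the 6 lost their call (Dnaja3 and Hspa12a on CR, Hspe1 on TR), and with one of 0.3 all 6 kept it. The brown or beige adipocyte markers rose in iWAT on both diets, and the part of cell makeup in these differences was not tested.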

How the results depend on the processing

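No paired analysis was possible because the deposited tables hold no value per library, so neither a replicate block by mouse nor the fits that leave out a library could be run. Of the recomputed counts of members, 38 stayed within 1.5 times and 16 did not. At an adjusted p under 0.01, the called members were 5 in liver TR minus AL, 0 in liver CR minus TR and 0 in iWAT CR minus AL, and under 0.1 they were 10 in iWAT TR minus AL. By transcript tables, members with a called transcript were 1 in liver CR minus AL, 5 in liver TR minus AL, 0 in liver CR minus TR and 1 in iWAT CR minus AL. With a log2 fold change of at least 0.5, liver TR minus AL kept 6. For the tissue difference of the CR effect (2 members), a correlation of 0.3 gave 6 and one of -0.3 gave 0, thresholds of 0.01 and 0.1 gave 0 and 5, and centring and the minimum log2 mean CPM of 1 gave 1 each; for TR (4 members), a correlation of 0.3 gave 7 and one of -0.3 gave 3, and Hspe1 lost its call at -0.3 and at the threshold of 0.01. No call changed direction for the gene's most abundant transcript or with centring. Centring moved the fold changes of a gene table by at most 0.04, so it could hardly turn a direction. The other alternatives kept the same fold change, so its direction was fixed in advance. Of 28 calls against the authors' threshold, 28 held after adjustment over genes with a symbol and 11 held at 0.01, and 9 of 28 held for the gene's most abundant transcript; in the other 19 the transcript's log2 fold change was 0.791 to 1.30 times that of the gene, and the cause of the lost calls was not tested. The Dnaja3 difference lost its call with centring. The larger SE in iWAT limits what could be called there.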
